A study of Mus musculus with 6 samples.

Results

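The entries mir-221 and mir-222 are 2 of the 1006 miRBase precursor entries counted in 6 small RNA libraries, and they were chosen by name as a pair of neighbouring miRNAs. miR-221 and miR-222 are cut from a single primary transcript and share their seed, the stretch near the 5′ end with which a miRNA finds its target mRNAs. Both are known for lowering the cell cycle inhibitor p27 (Cdkn1b) and the receptor Kit, and for keeping cells in proliferation. In muscle they are high in dividing myoblasts, fall as the cells fuse into myotubes, and in blood formation they fall as erythroid cells mature.

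Mouse RNA of 4 kinds was sequenced, with 2 Myo-EV and 2 FFSS-Myo-EV libraries and a single library each of primary osteoblasts (OB) and primary bone marrow cells (BM). Myo-EVs are extracellular vesicles pelleted by ultracentrifugation from the medium of C2C12 cells, an established myoblast line, in 10% EV-depleted serum, and FFSS-Myo-EVs come from the same line under fluid flow shear stress (FFSS), which the methods describe as 48 hr on an orbital shaker. The labels name the stress of these 2 libraries, but their growth protocol names optional vitamin D or dexamethasone over 48 hr, and not FFSS, for all 6 libraries, and does not say which of them, if any, received either. The labels give a mixed background of 81.25% C57BL/6J and 18.75% 129/SvJ for all 6, the cell line included, and an age of 8 to 10 weeks for the cells, whereas the methods describe osteoblasts pooled from the calvariae of newborn males and marrow from the tibiae of 1 male. No library was made from the C2C12 cells themselves, so levels in the vesicles cannot be set against the cells that released them. Nothing in the labels says that the replicate EV libraries came from separate cultures, so the spread between them may be technical.

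The total count was between 2414132 and 6092460 per library. The normalized expression value is the count multiplied by 1 constant per library, set by the authors. By the sums of the lists, the libraries carried the marker miRNAs of their labels, although some members of the muscle and mesenchymal lists went the other way. The muscle markers (mir-206 with the mir-1 and mir-133 entries) summed to between 2052.9 and 2641.9 normalized expression units in the EV libraries, 118.9 in OB and 71.9 in BM. In the EVs mir-206 gave nearly all of this sum, whereas mir-1a-1 was at 0 in all 4 EV libraries. The mir-1 entries went the other way, since BM held 30.6 of mir-1a-1 and 31.4 of mir-1a-2, above every EV library. In BM mir-206 was at 7.9. The leukocyte markers (mir-223, mir-142a, mir-150, mir-342) summed to 27116.0 in BM, 719.6 in OB and between 67.1 and 83.0 in the EVs. The mesenchymal markers (the mir-199 entries, mir-214, mir-143, mir-145a) summed to 536435.8 in OB, 22199.3 in BM and between 335111.9 and 437712.5 in the EVs. Of these, the mir-199 entries and mir-214 were highest in OB. In contrast, mir-143 was at 269505.8 in OB and between 274481.7 and 372549.3 in the EVs. Likewise, mir-145a was at 16583.5 in OB and between 21558.8 and 25112.8 in the EVs. BM and OB are mixtures in bulk, in which more cells of a type and more RNA per cell cannot be told apart.

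The mature sequences are shown because the seed, printed in capitals (bases 2 to 8), is what the members have in common. They are RefSeq sequences on GRCm38, from 5′ to 3′.
miR-221-3p: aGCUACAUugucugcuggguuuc
miR-222-3p: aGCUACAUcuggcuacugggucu
miR-1928: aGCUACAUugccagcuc
miR-221-5p: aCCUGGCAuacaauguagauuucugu
The precursor of mir-221 lies at chrX:19146294-19146388 and that of mir-222 at chrX:19146893-19146971, both on the minus strand, so that mir-222 comes first in the direction of transcription. They are 504 bases apart, and no other gene of the GENCODE M21 annotation overlaps either of them. The nearest other annotated gene is the noncoding Gm14636 on the same strand, 10009 bases from mir-222. The sequences miR-221-3p and miR-222-3p share bases 1 to 8 and match at 11 of 23 positions, so a full-length read of one can be told from the other. Each matched 1 gene of the annotation exactly, its own. Of 1738 mature sequences in the table, 3 carry this seed, and the third is miR-1928, which was found by its seed only after the counts had been read. The entries of the file do not list the 5p and 3p forms apart, so a count of mir-221 may hold reads of both miR-221-3p and miR-221-5p.

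Both miRNAs were highest in BM. The normalized expression value of mir-221 was 26924.5 in BM (95% interval 26723.2 to 27126.7, 67789 counts), 4687.5 in OB (4588.4 to 4788.2, 8488 counts), while the Myo-EV libraries held 2868.9 and 3038.5 and those of FFSS-Myo-EVs 4630.3 and 4519.8. BM stood far above the other 5 libraries, and the interval of OB overlapped with those of both FFSS-Myo-EV libraries. With 67789 counts, mir-221 was the entry of rank 9 in BM, against rank 59 in OB, 61 in both FFSS-Myo-EV libraries, and 73 and 76 in Myo-EVs. The value of mir-222 was 16912.4 in BM (16752.6 to 17073.2, 42581 counts), 1941.2 in OB (1877.5 to 2006.4, 3515 counts), while Myo-EVs held 1429.5 and 1770.2 and FFSS-Myo-EVs 2026.3 and 2249.4. BM was again apart at the top and Myo-EVs were lowest, and the interval of OB overlapped with that of the first FFSS-Myo-EV library. It ranked 19 in BM, 86 in OB, 91 and 88 in FFSS-Myo-EVs, and 101 and 98 in Myo-EVs. The intervals (exact Clopper-Pearson, from the share of a library's counts) describe counting error alone, since PCR copies were not marked by molecular identifiers. OB and BM are single libraries without replicate error.

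**Figure D1:**
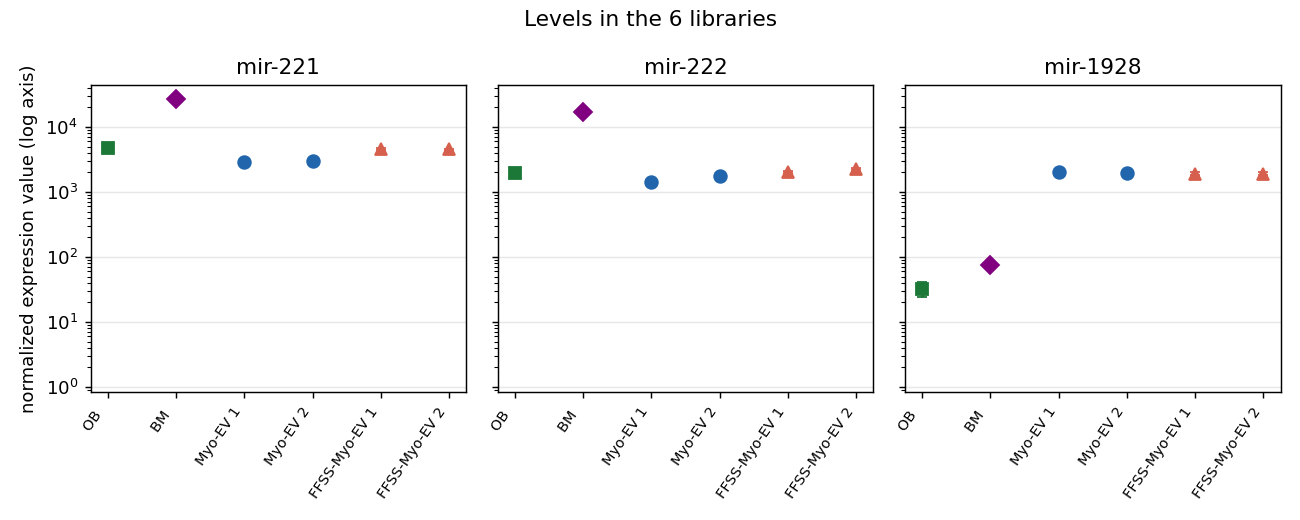
Normalized expression value (log axis) of mir-221, mir-222 and mir-1928 in each of the 6 libraries, with bars for the 95% counting interval, which are mostly smaller than the symbols. For mir-221 and mir-222 BM is the highest library, at 26924.5 and 16912.4, whereas mir-1928 is highest in the 4 EV libraries, between 1913.7 and 2012.7.

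BM was 5.74 times OB for mir-221 and 8.71 times OB for mir-222. Of the 354 entries that averaged 10 or more over the EV libraries, 27.7% were at least 2-fold higher in BM than in OB, and the median ratio was 1.22. Against BM, the FFSS-Myo-EV mean was 0.170 for mir-221 and 0.126 for mir-222, that is 5.89 and 7.91 times lower. A mean at least 2-fold below BM was found for 23.7% of the 354 entries, while the median entry was 1.88 times higher in FFSS-Myo-EVs than in BM. The 354 entries were chosen by their EV level, so entries high in BM but low in the EVs, such as mir-223, are missing from these shares and medians. The ratios of the members also depend on the scale between the libraries. In BM, mir-21a alone made up 44.9% of all counts, against 20.2% to 23.3% elsewhere, and on library totals without mir-21a the ratio to BM was 0.0956 for mir-221 and 0.0712 for mir-222. Against OB, the FFSS-Myo-EV mean was 0.976 for mir-221 and 1.10 for mir-222. For mir-222 the direction turned to 0.892 with median-of-ratios scaling, and neither miRNA can be called higher or lower than in OB. The Myo-EV mean was 0.630 of OB for mir-221 and 0.824 for mir-222.

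In the vesicles, mir-221 was higher under FFSS, whereas the rise of mir-222 did not pass the test. The mean of mir-221 was 2953.7 ± 119.9 (SD, n = 2) in Myo-EVs and 4575.0 ± 78.1 (SD, n = 2) in FFSS-Myo-EVs, which is 1.55 times as much, and the groups did not overlap. On the counts, it rose by a log2 fold change of 0.51 with a standard error of 0.13 (adjusted p = 0.00074, quasi-likelihood test of edgeR, Benjamini-Hochberg over 354 entries). For mir-222 the mean was 1599.8 ± 240.9 (SD, n = 2) in Myo-EVs and 2137.8 ± 157.8 (SD, n = 2) in FFSS-Myo-EVs, a ratio of 1.34, and the groups again did not overlap. The same edgeR test gave it a log2 fold change of 0.30 with a standard error of 0.13 (adjusted p = 0.0571). The distance between the 2 Myo-EV libraries of mir-222, 1429.5 and 1770.2, was larger than that from the higher of them to the lower FFSS-Myo-EV library.

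One of the 2 members was thus called higher, beside 12.1% of all tested entries, and 18.4% were called lower, which makes 30.5% called in either direction. Both FFSS-Myo-EV libraries lay above both Myo-EV libraries in 36.7% of tested entries on the authors' scaling and in 26.0% after TMM, so separate groups are frequent in this comparison. The median log2 fold change over the tested entries was -0.025. A smaller log2 fold change than that of mir-221 was found for 82.8% of them, and than that of mir-222 for 73.4%. The authors' scaling moved the median of all entries to 0.098, and with it the log2 fold changes of mir-221 and mir-222 were 0.64 and 0.42, with adjusted p = 0.000138 and 0.0205 in edgeR. Both miRNAs were among those that the study picked from these libraries by level and by ratio, so their rise is not independent evidence.

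The call of mir-221 was lost without the first FFSS-Myo-EV library, and without the second it stayed just inside the threshold. Without the first its log2 fold change was 0.44 (adjusted p = 0.12 in edgeR), and the number of called entries fell from 108 to 44. Without the second it was 0.60 (adjusted p = 0.0479 in edgeR), with 45 called. For mir-222, the log2 fold change was 0.50 (adjusted p = 0.00205 in edgeR) without the second Myo-EV library and 0.20 (adjusted p = 0.22) without the first.

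**Figure D2:**
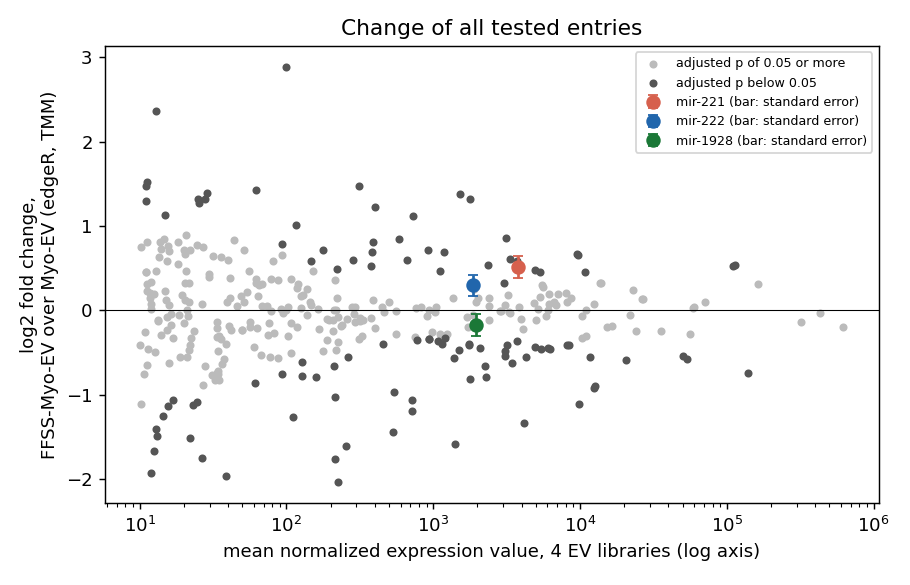
Log2 fold change of FFSS-Myo-EV over Myo-EV (edgeR after TMM) against the mean normalized expression value in the 4 EV libraries (log axis) for 354 tested entries, with called entries in dark grey. The entries mir-221 at 0.51 and mir-222 at 0.30 lie within the cloud of entries of their level, and mir-1928 lies at -0.17 (bars show the standard error).

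Some marker miRNAs of blood cells and serum had higher counts in FFSS-Myo-EVs, but they averaged below 10 normalized units in Myo-EVs and reached the filter only through the FFSS group, so no test is given for them. The count of mir-451a, which is made in erythroid cells, was 3 and 4 without FFSS and 26 and 16 with it. The count of mir-122, a miRNA of liver that circulates in serum, was 6 and 4 without FFSS and 18 and 14 with it. The erythroid list (mir-144, mir-451a, mir-486a, mir-486b) summed to 162.6 and 230.0 without FFSS and to 239.1 and 228.2 with it, sums which overlap between the groups. Most of this sum in the EVs was mir-486a and mir-486b, which are also listed as muscle differentiation entries, so it says little about erythroid cells. The serum or liver list (mir-122, mir-192) summed to 185.7 and 228.8 and to 258.0 and 213.7, respectively, and overlap too. The other tested members of these lists did not rise by edgeR's test. The log2 fold change was -0.038 for mir-486a (adjusted p = 0.942), 0.045 for mir-486b (adjusted p = 0.935) and 0.008 for mir-192 (adjusted p = 0.984). The leukocyte list summed to 75.3 and 67.1 without FFSS and to 77.8 and 83.0 with it, without overlap. On the same scaling, 36.7% of all tested entries were likewise higher in FFSS-Myo-EVs without overlap. Most of the EV sum was mir-342, at 67.3 and 61.1 without FFSS and at 56.8 and 65.3 with it. Its log2 fold change was -0.205 (adjusted p = 0.707 in edgeR). The count of mir-223 was 1 and 0 without FFSS and 7 and 5 with it. That of mir-142a was 4 and 1 without FFSS and 7 and 8 with it, and that of mir-150 was 3 and 4, and 7 and 3. These low-count entries were below the filter and were not tested. In BM, where mir-221 was at 26924.5, mir-223 was at 9710.3, whereas mir-223 was at 7.0 and 5.5 in FFSS-Myo-EVs. mir-451a was at 1385.8 in BM and at 25.9 and 17.7 in FFSS-Myo-EVs. The part of these markers in the rise of mir-221 was not tested.

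The ratio of mir-221 to mir-222 is free of any scaling by 1 constant per library, since both counts come from the same library. Ligation and PCR differ between sequences, so the ratio is compared between libraries and is not a ratio of molecules. The count of mir-221 exceeded that of mir-222 in all 6 libraries. The ratio was highest in OB, at 2.42 (95% interval 2.32 to 2.51), and lowest in BM, at 1.59 (1.57 to 1.61). In the EVs it was 2.01 (1.88 to 2.14) and 1.72 (1.61 to 1.83) in Myo-EVs, and 2.29 (2.17 to 2.41) and 2.01 (1.91 to 2.12) in FFSS-Myo-EVs. The interval of BM overlapped with that of the second Myo-EV library alone, which is the lowest EV library, and the interval of OB overlapped with that of the first FFSS-Myo-EV library alone. The first Myo-EV library and the second FFSS-Myo-EV library had nearly the same ratio, so the EV groups met at 2.01.

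The mean log2 ratio was 0.89 ± 0.16 (SD, n = 2) in Myo-EVs and 1.10 ± 0.13 (SD, n = 2) in FFSS-Myo-EVs, which corresponds to geometric mean ratios of 1.86 and 2.14. The difference of 0.207 was larger than either SD, but the 2 Myo-EV libraries, at 1.005 and 0.779, lay further apart than that. A two-sided exact permutation test gave p = 0.333, the smallest p that 2 libraries against 2 allow. Whether mir-221 rose more than mir-222 therefore could not be tested at a threshold of 0.05. Between libraries of the same replicate number, the difference was 0.19 for the first and 0.23 for the second.

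**Figure D3:**
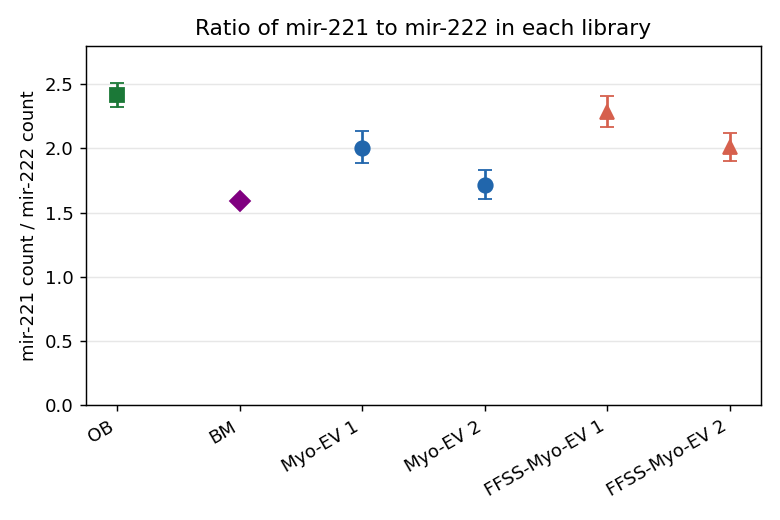
Count of mir-221 divided by that of mir-222 in each library, with bars for the exact 95% binomial interval. OB is highest at 2.42 and BM lowest at 1.59, and the 4 EV libraries lie between them, from 1.72 to 2.29.

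Other neighbouring miRNAs give a measure of how far such a ratio moves. Of 29 listed pairs of precursors, 20 had at least 50 counts of both entries in every library. Of the 29, positions of both precursors were found for 23 pairs, of which 22 lay on the same strand within 10000 bases. Over the 6 libraries the log2 ratio of mir-221 to mir-222 had a range of 0.60, the fourth narrowest of the 20 pairs, whose median range was 1.43. Narrower ranges were those of mir-23b and mir-27b at 0.17, mir-17 and mir-20a at 0.44, and mir-98 and let-7f-2 at 0.46. The widest ranges were those of mir-99a and let-7c-1 at 4.65, mir-30a and mir-30c-2 at 4.41, and mir-23a and mir-24-2 at 3.43. Of these, mir-30a and mir-30c-2 are the pair beyond 10000 bases, at 19361 bases apart. Entries with a second genomic copy of the same mature sequence, whose reads cannot be divided with certainty, occur in wide pairs (let-7c-1, mir-30c-2, mir-24-2) and in narrow ones (let-7f-2). Within the 4 EV libraries alone, the range for mir-221 and mir-222 was 0.41, close to the median of 0.45 and in place 9 of 20. The pair was thus among the narrower ones when the cells were counted in, and near the median among the EVs alone.

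**Figure D4:**
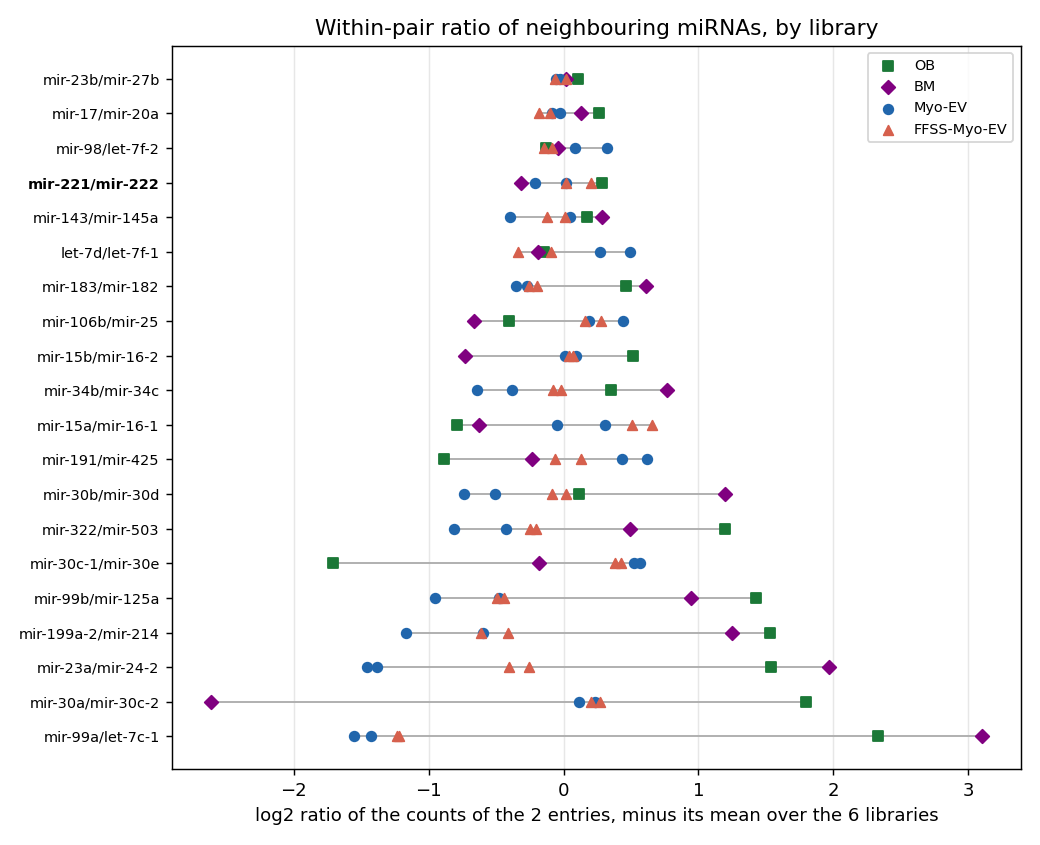
Log2 ratio of the counts of the 2 entries of each of 20 neighbouring pairs, centred on its mean over the 6 libraries, with a symbol for each library and pairs ordered by range. The range is 0.60 for mir-221/mir-222 (bold), 0.17 for mir-23b/mir-27b and 4.65 for mir-99a/let-7c-1.

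The third carrier of the seed, mir-1928, had another distribution. Its precursor lies at chr1:74206554-74206620 on the minus strand, outside any other annotated gene. The normalized expression value of mir-1928 was 32.0 in OB (58 counts), 75.5 in BM (190 counts), while Myo-EVs held 2012.7 and 1959.4 and FFSS-Myo-EVs 1913.7 and 1924.9. All 4 EV libraries were thus above both cells, by 25.4 times BM and 60.0 times OB for the FFSS-Myo-EV mean. A mean at least 2-fold above BM was found for 49.2% of the 354 entries, and at least 2-fold above OB for 47.2%. Both shares are over entries chosen by their EV level. The level of mir-1928 in the vesicles was near that of mir-222. With FFSS it did not pass the test (log2 fold change -0.17, standard error 0.13, adjusted p = 0.319 in edgeR), and the adjusted p was between 0.148 and 0.909 in 14 other analyses.

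Over the 3 entries with this seed, mir-1928 made up 31.9% (95% interval 30.7 to 33.1) and 29.0% (27.8 to 30.2) of the counts in Myo-EVs, and 22.3% (21.5 to 23.2) and 22.1% (21.2 to 23.1) in FFSS-Myo-EVs. In OB it made up 0.481% (0.365 to 0.621) and in BM 0.172% (0.148 to 0.198). A list of the seed's carriers in BM and OB thus comes down to mir-221 and mir-222, whereas in the vesicles it does not. The 17 bases of miR-1928 differ from the first 17 bases of miR-221-3p at 3 positions, and they share bases 1 to 10. The count of mir-1928 per count of mir-221 was 0.00280 in BM and 0.00683 in OB, but Myo-EVs gave 0.701 and 0.645 and FFSS-Myo-EVs 0.413 and 0.426, so it did not follow mir-221 across the libraries. The sequence matched no other annotated transcript exactly on either strand, but the number of mismatches that the authors allowed is not given in the sources used here. The genome outside annotated transcripts was not searched, and the origin of the reads counted as mir-1928 was not tested.

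The entries whose pattern over the 6 libraries was most like the members were ranked among the 246 entries whose mean over the libraries reached 100. For mir-221 the 5 highest Pearson correlations of log2 values were those of mir-30b (0.997), mir-222 (0.988), mir-142b (0.982), mir-126a (0.980) and mir-146a (0.975). For mir-222 they were those of mir-16-2 (0.994), mir-652 (0.993), mir-16-1 (0.989), mir-221 (0.988) and mir-30b (0.986). The members were thus near each other but not nearest. These are descriptions over 6 points, of which 4 are EV libraries and 1, BM, lies apart, so entries that are high in BM rank well. Such an entry is mir-142b, at 5825.1 in BM but at 0.0 in both Myo-EV libraries and at 3.0 and 7.8 in FFSS-Myo-EVs. By the Euclidean distance of centred log2 profiles, which also weighs the size of the differences, mir-222 was again in place 2 for mir-221, and mir-221 in place 2 for mir-222. With mir-30b, the nearest to mir-221 by both measures, the value was 4520.3 in BM, 736.7 in OB, 513.0 and 488.7 in the vesicles without FFSS, and 797.0 and 855.0 in those with FFSS.

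Of miRNAs with a like role in proliferation, 9 entries of the mir-17-92 and mir-106b-25 clusters were all tested, 0 were called higher in FFSS-Myo-EVs and 3 were called lower by edgeR's test, beside 12.1% and 18.4% of all tested entries. DESeq2 gave the same counts, and at an unadjusted p below 0.05 edgeR gave 0 higher and 4 lower. The 3 calls depended on the scale between libraries, since 2 remained with library totals and 0 on the authors' scaling, where 1 entry was higher and 2 were lower at an unadjusted p below 0.05 in edgeR. Their median log2 fold change was -0.23 with TMM and -0.10 on the authors' scaling. The most abundant were mir-92a-1 (log2 fold change -0.31, adjusted p = 0.0971), mir-20a (0.06, adjusted p = 0.8) and mir-25 (-0.36, adjusted p = 0.0229, all in edgeR). The other 2 called lower with TMM, named after their values were seen, were mir-18a with -0.66 and mir-106b with -0.47, for which the authors' scaling gave an adjusted p of 0.0558 and 0.074 in edgeR. The 9 entries summed to 28003.0 in BM and 13597.0 in OB, against 43836.9 and 6628.7 for mir-221 and mir-222 together.

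Of 11 muscle differentiation entries, which rise when myoblasts fuse, 7 were tested and 5 of these averaged 10 normalized units or more in both EV groups. Of the 5, 0 were called higher and 1 was called lower by edgeR with each of the 5 scalings and by DESeq2, beside 12.1% and 18.4% of all tested entries with TMM, and 0 were higher at an unadjusted p below 0.05. The most abundant were mir-378a (log2 fold change -0.22, adjusted p = 0.209 in edgeR), mir-206 (0.15, adjusted p = 0.42) and mir-486b (0.05, adjusted p = 0.935). The normalized expression value of mir-206 was 1968.5 and 2365.4 without FFSS and 2610.0 and 2604.9 with it. The entry that fell, named after its values were seen, was mir-133b, with few counts, 45 and 30 without FFSS and 14 and 11 with it (log2 fold change -1.75, adjusted p = 0.000139 in edgeR). The counts of mir-133a-1 were 19 and 16 without FFSS and 10 and 4 with it, and those of mir-133a-2 were 17 and 17, and 6 and 4. These entries yield the same mature sequence and reached the filter only through Myo-EVs, so no test is given for them.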

How the data were processed

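Small RNA was ligated to adaptors, amplified and sequenced from 90 ng of total RNA. Per the methods, the authors used CLC Genomics Workbench to group reads by sequence and to assign the groups to miRBase entries, and deposited read counts per precursor entry. The deposited normalized expression values (a scaled signal) are the counts times 1 constant per library. The labels name mm10. The miRBase release and mismatch settings are not given in the sources used here.

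Columns were matched to libraries by the identifiers in the labels. FFSS-Myo-EVs and Myo-EVs were compared on counts with edgeR 4.0.16 in R 4.3.3 (TMM, library size over all entries, quasi-likelihood test, Benjamini-Hochberg adjustment, entries that averaged 10 normalized units or more). The fit has 2 residual degrees of freedom and infinite prior degrees of freedom. The test was tested on simulated data. Alternatives were DESeq2 1.42.0, limma 3.58.1, other scalings and filters, the replicate block, and each library left out. Intervals and the permutation test used Python 3.11.15. Correlations used log2(value + 1). Named entries are the members, the 3 most abundant entries of each list, the 5 most alike entries, and the 3 pairs with the widest and the 3 with the narrowest ratios. The members and lists were chosen with earlier results of these data known. Sequences and positions are from RefSeq and GENCODE M21 on GRCm38.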

Additional observations from a re-analysis of the deposited data

How the results depend on the processing

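The log2 fold change of mir-221 was positive in all 14 alternatives and lost its call in 1, without the first FFSS-Myo-EV library. With single EV libraries left out it lay between 0.439 and 0.603. That of mir-222 was positive in all 14 and passed the threshold in 8. It was 0.324 with median-of-ratios size factors, 0.374 with library totals, 0.347 with library totals without mir-21a, 0.422 with the authors' scaling, 0.343 for entries with a mean of at least 100, and 0.424 and 0.422 with limma and a pseudocount of 1 and 10. With single EV libraries left out it lay between 0.205 and 0.496. Its adjusted p was 0.0701 with DESeq2 and 0.378 without a filter. The cause was not tested. The number of entries called lay between 44 and 132 with single EV libraries left out and between 82 and 111 in the other alternatives, with 53 higher and 38 lower on the authors' scaling, against 43 and 65 with TMM. With the replicate number as a block, the log2 fold changes of mir-221 and mir-222 were 0.508 and 0.301, and neither call changed. With this block 110 entries were called, against 108 without it, and the mean difference of the log2 ratio was 0.207. The numbers are not stated to pair the libraries (correlation of deviations 0.209 across 354 entries). The difference of the log2 ratio lay between 0.094 and 0.320 with single EV libraries left out.

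The ratio of FFSS-Myo-EVs to BM for mir-221 was 0.138 with library totals, 0.0956 without mir-21a and 0.160 with median-of-ratios scaling, and that for mir-222 was 0.103 and 0.0712 with the first 2. The ratio to OB for mir-221 was 0.937, 0.924 and 0.792 with the 3 scalings, and that for mir-222 was 0.892 with median-of-ratios scaling. By Euclidean distance, 2 of the 5 entries most like mir-221 and 3 of the 5 most like mir-222 were the same as by correlation. OB and BM have no replicates. The counts of list members under each scaling were added after the data had been seen.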
